A study of Danio rerio with 2 samples.

Results

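The 10 genes described here serve the thymus, lymphocytes and the presentation of antigen in larval zebrafish: foxn1, ccr9a, ikzf1, rag1, rag2, lck, zap70, cd74a, cd74b and b2m. They were chosen by symbol, with their ratios between the libraries already known, so their values describe these libraries and were not tested. Each of the 10 symbols matched 1 gene model among the 22849 in the table. The larvae were wild-type AB zebrafish, collected whole at 6 days post fertilization (dpf). One library came from larvae held in benzo[a]pyrene (BaP, 1 µM) between 3 and 6 dpf, and the other from larvae held over the same time in the solvent, dimethyl sulfoxide (DMSO, 0.1%). Each library was made from RNA of 4 pooled biological replicates, so the difference between them has no replicate check and no p-value is given. BaP, which forms when organic matter burns, acts on a transcription factor called AhR (aryl hydrocarbon receptor). The comparison asks how far each transcript's level under BaP lay from its level under DMSO.

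The thymus is where T cells mature. Progenitors enter it along chemokine gradients, and its epithelium is specified by the transcription factor Foxn1. Inside it, thymocytes cut and rejoin their antigen receptor genes with the Rag1 and Rag2 recombinase, and signals from the finished receptor run through the kinases Lck and Zap70. T cells read peptides held by major histocompatibility complex (MHC) proteins. Class I molecules are borne by most cells and need beta-2-microglobulin. Class II molecules are borne by professional antigen-presenting cells and are assembled on the invariant chain, CD74. In mammals, strong AhR ligands such as dioxin are known to shrink the thymus. This is background and not a result of these data.

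Values are normalized read counts scaled and rounded by the authors, called normalized reads below, and a ratio is BaP over DMSO. The values summed to 11968060 in the BaP library and 13443263 in the DMSO library, which corresponded to about 22000110 and 19804453 reads. The AhR target cyp1a, which checks the labels, had 17859 normalized reads in the BaP library and 650 in the DMSO library, and 5 of 7 AhR targets were at least 2-fold higher (median log2 ratio 3.1). Intervals are exact 95% intervals for counting error in the estimated reads, and they hold no variation between animals. In whole larvae, fewer cells of a type and less RNA per cell cannot be told apart.

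Of the 10 genes, 6 were at least 2-fold lower in the BaP library (cd74a, zap70, rag1, rag2, cd74b and lck), 1 was at least 2-fold higher (ccr9a), and 3 lay between (foxn1, ikzf1 and b2m). Among the 21764 genes whose values summed to at least 10, 4.36% were at least 2-fold lower and 3.75% at least 2-fold higher. The median log2 ratio was -1.18 over the 10 genes and -0.06 over the 21764. Because the genes were selected on this contrast, nothing is read from that difference. Most of the 10 were weakly measured: 6 had fewer than 20 normalized reads in the BaP library, and 3 had fewer than 20 in the DMSO library. Weakly measured genes passed 2-fold more often. With summed values of 10 to 49, the range of 5 of the 10 genes, 14.0% of all genes were at least 2-fold lower and 8.22% at least 2-fold higher. With summed values of at least 50 and under 300, the range of 4 of them, these shares were 3.22% and 3.15%. At 300 or more, where only rag1 lay, they were 2.33% and 2.86%. The lower gene nearest to the 2-fold line was lck, with a ratio of 0.452, and the gene nearest to it on the other side was foxn1, with 0.556.

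**Figure D1:**
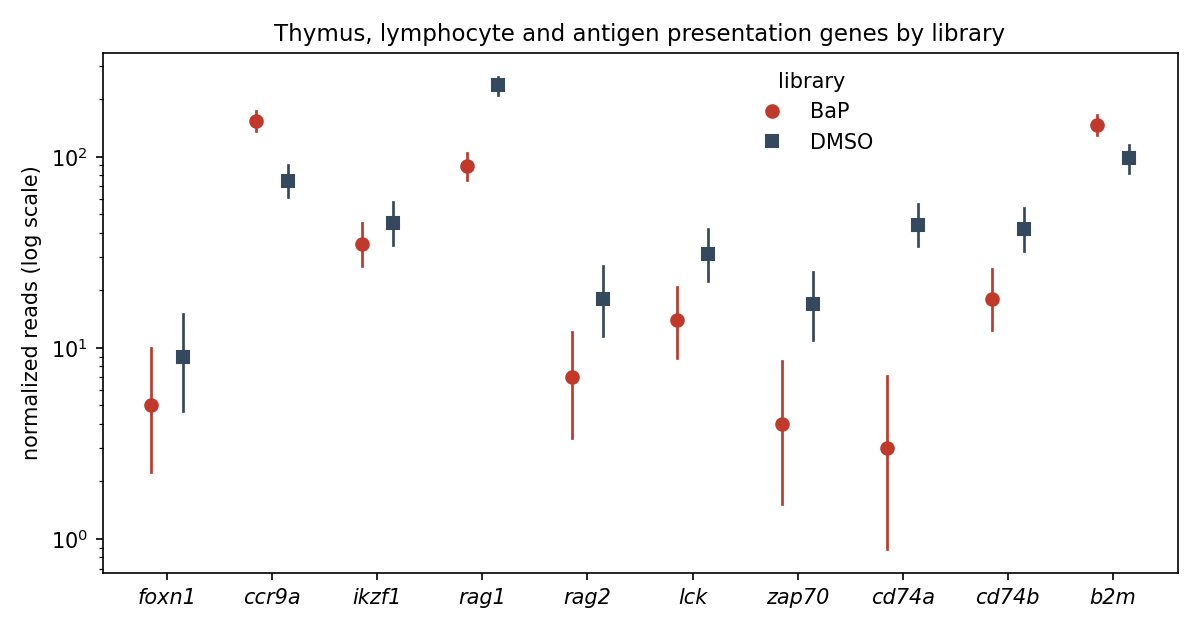
Normalized reads (log scale) of the 10 genes in the BaP library (circles) and the DMSO library (squares), with exact Poisson 95% intervals for counting error. The values of rag1 (89 in BaP, 236 in DMSO) and ccr9a (153 in BaP, 75 in DMSO) lie apart in opposite directions, while those of foxn1 (5 and 9) have overlapping intervals.

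The recombinase genes were lower together. rag1 (ENSDARG00000052122, chromosome 25, 9003230 to 9009902, plus strand), which encodes the catalytic subunit that cuts receptor gene segments, had 89 normalized reads in the BaP library and 236 in the DMSO library. It was 2.65-fold lower (95% interval 2.19 to 3.23) and was the best measured of the lower genes, with about 164 and 348 estimated reads. rag2 (ENSDARG00000052121, chromosome 25, 9010425 to 9013963, minus strand), which encodes the partner subunit, had 7 normalized reads in the BaP library and 18 in the DMSO library. It was 2.57-fold lower, with a wide interval (1.24 to 6.08), since it rested on about 13 and 27 estimated reads. The ratio of rag1 to rag2 reads was 12.6 within the BaP library (exact 95% interval 7.18 to 24.2) and 12.9 within the DMSO library (8.71 to 19.8). These values were close, but the BaP one rests on about 13 rag2 reads, and the intervals leave room for different proportions. The genes lie tail to tail, 522 bases apart, and rag2 overlaps a gene on the other strand, iftap in the name table, by 622 bases. That gene had 26 normalized reads in the BaP library and 37 in the DMSO library, a ratio of 0.703 (0.454 to 1.07). The sources do not say whether counting used strand, so reads in that overlap cannot be assigned.

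The other genes of receptor rearrangement lay within 2-fold. Of 15 measured genes of V(D)J recombination and end joining, only rag1 and rag2 passed 2-fold, both lower, and 13 lay between (median log2 ratio of the list -0.02). The end-joining genes are used by dividing and damaged cells of every tissue. Their values were 302 normalized reads in the BaP library and 274 in the DMSO library for the nuclease gene dclre1c (Artemis), 248 and 326 for the kinase gene prkdc, and 89 and 68 for the ligase gene lig4.

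Both proximal kinases of the T cell receptor were lower, on few reads. lck (ENSDARG00000102525, chromosome 17, 25344734 to 25382376), whose kinase starts the receptor signal, had 14 normalized reads in the BaP library and 31 in the DMSO library, 2.21-fold lower (95% interval 1.3 to 3.90). zap70 (ENSDARG00000015752, chromosome 8, 20393250 to 20414364), whose kinase binds the phosphorylated receptor, had 4 normalized reads in the BaP library and 17 in the DMSO library, 4.25-fold lower (1.7 to 12.2). Of 63 symbols listed for the T cell receptor complex and its signalling, 44 matched a gene model. Among those not matched were cd3e, cd3g, cd247 and the receptor chain symbols trac, tcra, tcrb and tcrd. The list counts thus leave out these parts of the receptor. Of 40 measured genes on this list, 5 were at least 2-fold lower (12.5%) and 0 higher. The other 35 lay between (median log2 ratio -0.08). Besides lck and zap70, the lower genes were cd4-1, lcp2b and itk. cd4-1, for a helper T cell co-receptor, had 2 normalized reads in the BaP library and 11 in the DMSO library (5.50-fold lower, 1.61 to 35.6). lcp2b, for an adaptor of the SLP-76 type, had 4 and 18 (4.50-fold lower, 1.78 to 13.1). itk, for a kinase acting after Lck, had 8 and 18 (2.25-fold lower, 1.1 to 4.97), and is named beyond the rule for named genes. The intervals of all 5 left out equality. All 5 had summed values of 10 to 49, where 14.0% of all genes were at least 2-fold lower. The 12.5% covers listed genes of every level, so it cannot be set against that share. Over all measured genes of every level, 4.36% were at least 2-fold lower.

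Not all listed genes better known from T cells passed 2-fold. In the BaP and DMSO libraries, cd247l had 11 and 14 normalized reads (ratio 0.786, 0.393 to 1.64), themis 9 and 14 (0.643, 0.298 to 1.37), and cd28 6 and 9 (0.667, 0.275 to 1.64). cd4-2.2 had 5 in each library (0.309 to 3.54). The intervals of these genes held both equality and 2-fold lower, so their reads do not separate these levels. skap1 had 18 in BaP and 31 in DMSO (ratio 0.581, 0.356 to 0.967), an interval that left out equality and held 2-fold lower. The list also holds genes used outside T cells, and those given here had ratios within 2-fold on either side of equality. The phosphatase gene ptpn22 had 218 normalized reads in the BaP library and 122 in the DMSO library (ratio 1.79, 1.49 to 2.15). The signalling adaptor gene bcl10 had 151 and 98 (ratio 1.54, 1.25 to 1.91), and the lipid kinase gene dgkaa had 471 and 630 (ratio 0.748, 0.680 to 0.821). Others were close to equality. The leukocyte phosphatase gene ptprc (CD45) had 162 normalized reads in the BaP library and 160 in the DMSO library, and the kinase gene fyna had 884 and 928. cd3eap, taken in by its symbol, is better known as an RNA polymerase I subunit gene and had 257 and 244. The co-receptor genes of killer T cells were at or near the floor, with 1 normalized read in each library for cd8a and with 0 in BaP and 1 in DMSO for cd8b. The adaptor gene lat, listed as BX784026.1 and paired with that name in the name table, had 18 normalized reads in the BaP library and 26 in the DMSO library, a ratio of 0.692 (0.413 to 1.17). The cytokine receptor gene il7r, which thymocytes need to survive, had 15 in BaP and 30 in DMSO, 2-fold lower (1.19 to 3.42).

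**Figure D2:**
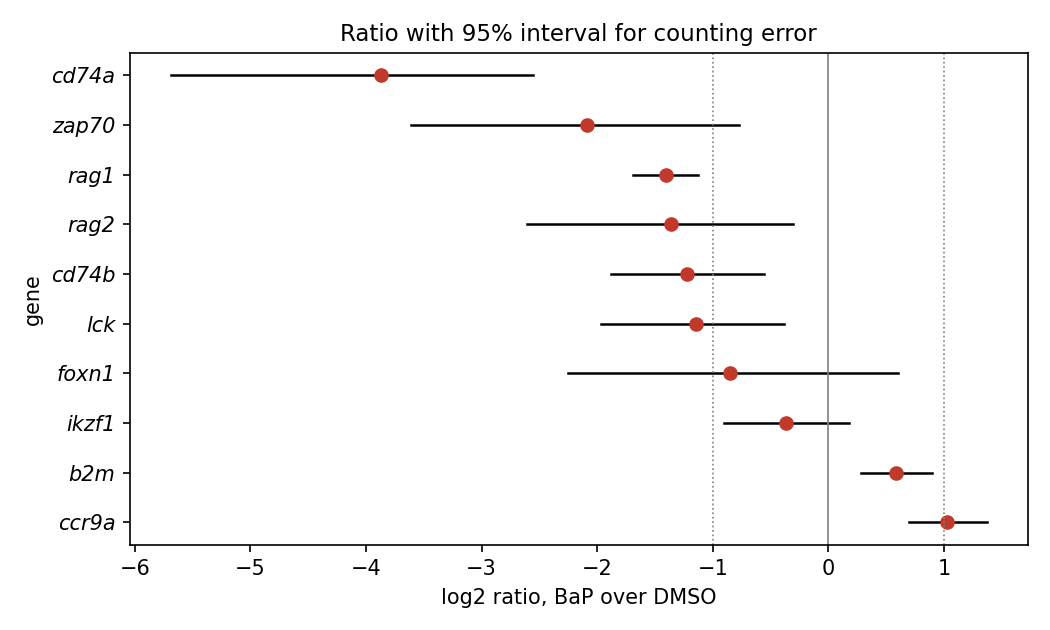
The log2 ratio of each gene, BaP over DMSO, with its 95% interval for counting error and dotted lines at 2-fold. The interval of rag1 is the narrowest of the lower genes and lies beyond 2-fold, and those of foxn1 and ikzf1 include a ratio of 1.

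The listed transcription factors that stand above these genes mostly lay within 2-fold. ikzf1 (ENSDARG00000013539, chromosome 13, 15957508 to 15994472), which encodes Ikaros, a factor that lymphoid progenitors need, had 35 normalized reads in the BaP library and 45 in the DMSO library. Its ratio of 0.778 had an interval (0.535 to 1.13) that included equality and reached close to 2-fold lower. Of 27 measured genes on the list of the Ikaros family and blood progenitor factors, 0 passed 2-fold in either direction (median log2 ratio -0.13). The most abundant of them were meis1b, with 1873 normalized reads in the BaP library and 2209 in the DMSO library, and bcl11aa, with 986 and 1073, both also known from the nervous system. The blood stem cell factor gene myb had 263 and 360, runx1 had 36 and 31, and the myeloid factor gene spi1b had 121 and 104. Of 31 measured T lineage factors, 1 was at least 2-fold lower and 0 higher (median -0.19). This was rorc, with 14 normalized reads in the BaP library and 29 in the DMSO library (2.07-fold lower, 1.21 to 3.67). tcf7, for the T cell factor TCF1, was 1.64-fold lower, with 47 and 77 (1.21 to 2.21). The most abundant genes of that list, tcf12 (2529 in BaP, 2488 in DMSO) and rorcb (1736 in BaP, 2074 in DMSO), are not confined to T cells.

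The thymic epithelium was represented by foxn1 (ENSDARG00000011879, chromosome 15, 28129683 to 28161224), which had 5 normalized reads in the BaP library and 9 in the DMSO library. That is about 9 and 13 estimated reads, a ratio of 0.556 (0.209 to 1.52). The interval includes equality and both a lower and a somewhat higher level, so these reads settle no direction for foxn1. Of 23 measured genes on the list of thymic epithelium and niche, 2 were at least 2-fold lower (8.70%, against 4.36% of all genes) and 0 higher. The median log2 ratio was -0.40, and 20 of the 23 had a ratio under 1, as did 56.4% of all 21764 genes. The lower genes were kitlgb, for a ligand of the Kit receptor (12 normalized reads in the BaP library, 35 in the DMSO library), and the epidermal keratin gene krt5 (13283 and 32151). Without krt5 and krt8, which epithelia all over the body express, the median over 21 genes was -0.35. The chemokine gene ccl25a, whose product draws progenitors to the fish thymus through Ccr9, was just short of 2-fold lower, with 330 normalized reads in the BaP library and 648 in the DMSO library (ratio 0.509, 0.459 to 0.565). ccl25b had 172 and 248 (ratio 0.694), and the chemokine gene cxcl12a had 812 and 1467 (ratio 0.554). The Notch ligand gene dll4 had 324 and 360 (ratio 0.900), and the protease gene prss16, known from mouse thymic cortex, had 316 and 287. Most genes of this list are expressed in other larval tissues too, and the source of their reads was not tested.

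ccr9a went the other way from its chemokine and from the recombinase genes. ccr9a (ENSDARG00000055186, chromosome 2, 32796873 to 32799083), which encodes a receptor for Ccl25 on thymus-seeking cells, had 153 normalized reads in the BaP library and 75 in the DMSO library. It was 2.04-fold higher (95% interval 1.62 to 2.58), on about 281 and 110 estimated reads, which puts it among the better measured of the 10 genes. Its copy ccr9b had 14 normalized reads in the BaP library and 22 in the DMSO library, a ratio of 0.636 (0.346 to 1.13). Of 17 measured genes on the list of homing and migration receptors, ccr9a was the 1 gene at least 2-fold higher. The 1 at least 2-fold lower was a cxcr3.1 gene model with 1 normalized read in the BaP library and 10 in the DMSO library, and a second model of that name had 4 and 7. The receptor genes cxcr4b (96 in BaP, 77 in DMSO) and s1pr1 (762 in BaP, 643 in DMSO) lay between, and the list's median log2 ratio was -0.17.

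Class II presentation held the most extreme of the 10 genes. cd74a (ENSDARG00000009087, chromosome 14, 3038473 to 3052361), for an invariant chain, had 3 normalized reads in the BaP library and 44 in the DMSO library. It was 14.7-fold lower (95% interval 5.89 to 51.6), on about 6 and 65 estimated reads. With a 0 set to 3 reads, only 2 of the 21764 genes had a lower ratio, and cd74a was chosen with its ratio known. Its copy cd74b (ENSDARG00000036628, chromosome 21, 33459524 to 33463894) had 18 normalized reads in the BaP library and 42 in the DMSO library, 2.33-fold lower (1.47 to 3.69). The copies differed in how far they were apart between the libraries. In the BaP library there were 0.182 cd74a reads per cd74b read (exact 95% interval 0.0623 to 0.439). In the DMSO library there were 1.05 (0.729 to 1.51). These intervals cover counting error only, and the BaP ratio rests on about 6 cd74a reads. Both copies were chosen with their values known, so the difference was not tested.

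The class II chains themselves were scarce, and 2 of those named here were lower. mhc2dab, for a class II beta chain, had 3 normalized reads in the BaP library and 16 in the DMSO library (5.33-fold lower, 1.89 to 20.1). si:busm1-266f07.2, which the name table calls mhc2daa and the deposited annotation describes as a class II alpha chain, had 5 and 18 (3.60-fold lower, 1.51 to 9.05). It was found by that annotation after the values were seen. Another beta chain gene, mhc2dbb, had 22 and 26 (ratio 0.846, 0.515 to 1.38), so not every class II chain was low. The deposited annotation places 7 gene models in the MHC class II protein complex. Only 2 of these had enough reads to compare, and 0 passed 2-fold. The lower chain genes mhc2dab and si:busm1-266f07.2 are thus not among the 7. The 7 models summed to 30 normalized reads in the BaP library and 40 in the DMSO library. Under antigen processing and presentation, 0 of 10 measured genes outside the members passed 2-fold, and under T cell receptor signaling 0 of 5 did. Under T cell differentiation, 2 of 5 measured genes outside the members were lower and 0 higher. Under lymphocyte differentiation, 2 of 7 were lower and 0 higher. Among all genes, 4.36% were lower and 3.75% higher. Outside the members, 0 of 3 passed 2-fold under thymus development and 0 of 3 under B cell receptor signaling. Under chemokine receptor activity, 1 of 4 was lower and 0 higher. These annotation terms can share genes and were chosen after the values were seen. The class II master regulator gene ciita had 13 normalized reads in the BaP library and 19 in the DMSO library, and the dendritic cell receptor gene flt3 had 11 and 20. MHC genes come in near-identical copies, and the sources do not say how reads shared between copies were counted.

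Of 24 measured genes on the list of class II presentation and costimulation, 3 were at least 2-fold lower (cd74a, cd74b and mhc2dab), 2 higher, and 19 lay between (median log2 ratio -0.22). These shares, 12.5% lower and 8.33% higher, compare with 4.36% and 3.75% of all genes. Without cd74a and cd74b, which were chosen with their ratios known, 1 of 22 was lower and 2 higher. The higher genes were the protease gene ctss2.1 (286 normalized reads in the BaP library, 135 in the DMSO library) and the transcription factor gene batf3 (19 and 7). Lysosomal enzymes of antigen processing, which work in many cells, went both ways. The cathepsin genes ctsla (13114 in BaP, 9594 in DMSO) and ctsba (2366 in BaP, 1719 in DMSO) were above a ratio of 1. The reductase gene ifi30 (292 in BaP, 495 in DMSO) and ctsh (371 in BaP, 637 in DMSO) were below it.

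On the class I side, genes passed 2-fold in both directions. b2m (ENSDARG00000053136, chromosome 4, 12785964 to 12795489), which encodes beta-2-microglobulin, the light chain of class I, had 147 normalized reads in the BaP library and 98 in the DMSO library. Its ratio of 1.5 (95% interval 1.22 to 1.86) fell short of 2-fold. It overlaps irak3 on the same strand by 5027 bases, with 15 normalized reads in BaP and 9 in DMSO, and reads in the shared stretch cannot be assigned. The related gene b2ml was far more abundant and had 3154 normalized reads in the BaP library and 3800 in the DMSO library. Of 40 measured genes on the class I list, 4 were at least 2-fold higher (10%) and 2 lower (5%), and 34 lay between (median log2 ratio 0.17). Among all genes these shares were 3.75% and 4.36%. The higher genes were the heavy chain genes mhc1zfa (89 normalized reads in BaP, 30 in DMSO), mhc1lja (26 in BaP, 8 in DMSO) and mhc1uka (20 in BaP, 10 in DMSO), and calr3b (689 in BaP, 315 in DMSO), for a calreticulin chaperone of the endoplasmic reticulum. The lower ones, mhc1lfa and psmb12, had 4 normalized reads in the BaP library and 10 in the DMSO library each, with intervals that included equality. Apart from mhc1zfa and calr3b, these genes had summed values of 10 to 49, where 8.22% of all genes were higher and 14.0% lower. Of 16 measured class I heavy chain models, 8 had a ratio over 1 and 7 under 1, so heavy chains as a family had no common direction. The most abundant, mhc1zba, had 1805 normalized reads in the BaP library and 1460 in the DMSO library. The peptide transporter gene tap1 had 29 in each library, and tap2t had 87 in BaP and 128 in DMSO.

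**Figure D3:**
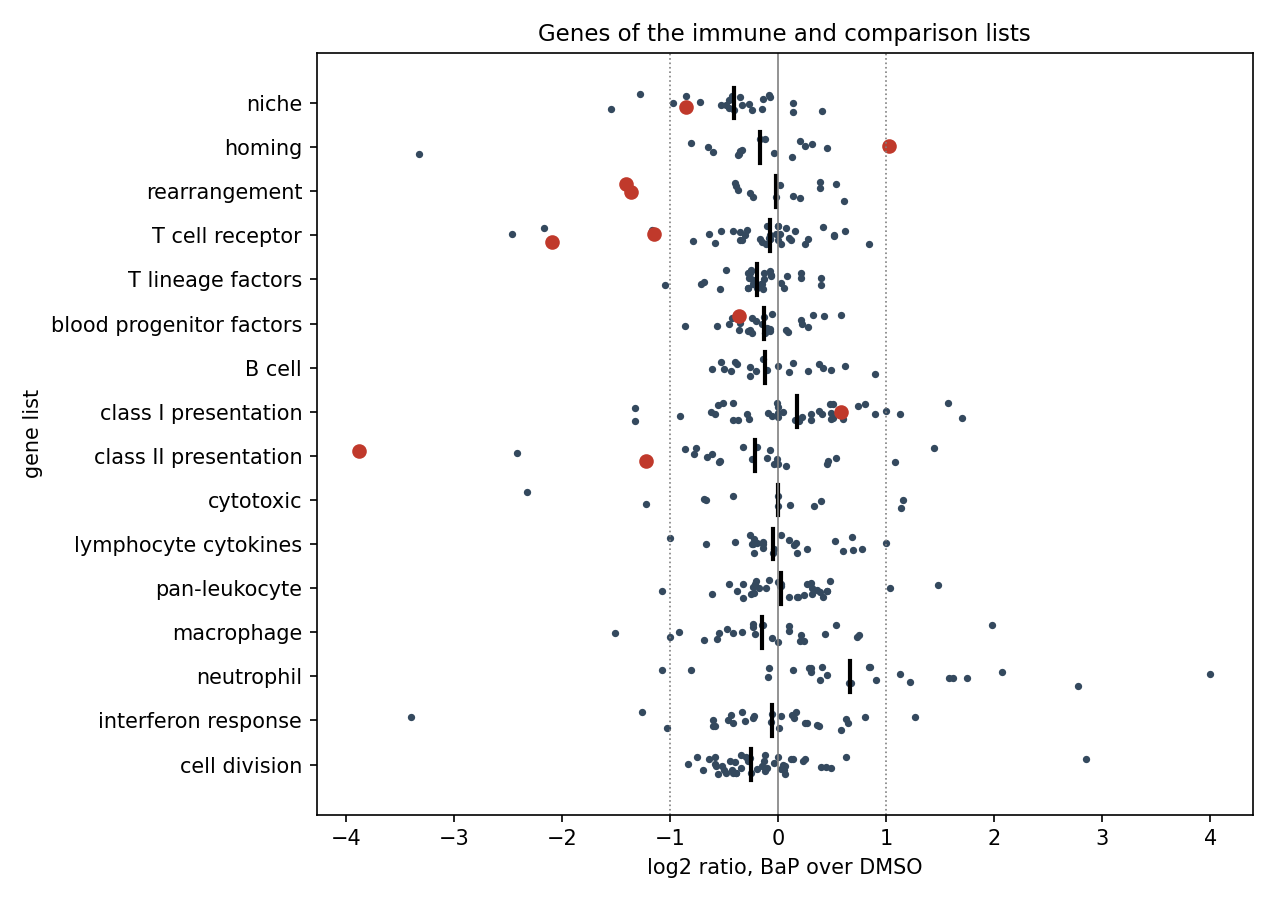
Log2 ratios, BaP over DMSO, of the measured genes of each list (dots), with the 10 genes as large circles, the list median as a bar and dotted lines at 2-fold. Medians lie within 0.41 of zero for every list drawn (all but the AhR targets) except the neutrophil list (0.67), while single genes such as cd74a (-3.87) and zap70 (-2.09) lie far below their lists.

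Markers of other leukocytes differed from list to list, and these differences were not tested. On the pan-leukocyte list, 2 of 34 measured genes were at least 2-fold higher and 1 lower (median log2 ratio 0.03), and its values summed to 6653 in the BaP library and 6637 in the DMSO library. The higher genes were cyba, for an oxidase subunit (260 normalized reads in BaP, 93 in DMSO), and the adhesion receptor gene cd44a (121 in BaP, 59 in DMSO). The lower gene was the adaptor gene tyrobp (9 in BaP, 19 in DMSO). On the macrophage list, 1 of 26 was higher and 2 lower (median -0.14), and the values summed to 5984 in the BaP library and 5968 in the DMSO library. Those 3 genes were the cytokine gene il1b (63 in BaP, 16 in DMSO), the heme oxygenase gene hmox1a (178 in BaP, 505 in DMSO), which many cells express, and the complement gene c1qa (5 in BaP, 10 in DMSO). The interval of c1qa included equality. On the neutrophil list, 8 of 24 were higher and 1 lower (median 0.67), where 3.75% of all genes were higher and 4.36% lower. The intervals of 7 of the 8 left out equality. The peroxidase gene mpx, its defining marker, had 829 normalized reads in the BaP library and 379 in the DMSO library. The others farthest above equality were mmp9 (1409 in BaP, 206 in DMSO) and the gene models named mmp13a (814 in BaP and 51 in DMSO, and 178 in BaP and 53 in DMSO). The 1 lower gene was cpa5, a carboxypeptidase gene far more abundant than mpx, with 18200 in BaP and 38191 in DMSO. The whole list summed to 27839 in the BaP library and 44413 in the DMSO library. Without cpa5, left out with its value known, it summed to 9639 and 6222, so the direction of the sum rested on that 1 gene. The remaining sum includes the mmp9 and mmp13a values above. Which cells gave the reads of mmp9, mmp13a and cpa5 was not tested, so neither sum measures neutrophils. The part that the numbers of these cells play in the values of the 10 genes was not tested.

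B cell genes lay within 2-fold, and most cytotoxic genes had too few reads to compare. Of 20 measured genes on the B cell list, 0 passed 2-fold in either direction (median log2 ratio -0.12). Their most abundant members, cd81a (6868 normalized reads in BaP, 9922 in DMSO) and xbp1 (1332 in BaP, 1336 in DMSO), are expressed by many cells. Among genes better known from B cells, the factor gene pax5 had 22 normalized reads in the BaP library and 20 in the DMSO library, and the kinase gene btk had 56 and 43. The antigen receptor genes were near 0, with 2 normalized reads in each library for cd79a, 1 in BaP and 2 in DMSO for cd79b, and 0 in BaP and 1 in DMSO for ighz. Only 12 of 34 gene models on the cytotoxic list had enough reads to compare, and 2 were higher and 2 lower (16.7% each). The higher were prf1.3 (11 in BaP, 5 in DMSO) and a dicp3.3 model (20 in BaP, 9 in DMSO), and the lower were nitr4a (3 in BaP, 7 in DMSO) and a dicp1.1 model (2 in BaP, 10 in DMSO). Intervals left out equality for only 1 of the 2 higher and 1 of the 2 lower. With summed values of 10 to 49, where these genes lay, 8.22% of all genes were higher and 14.0% lower. On the list of lymphocyte cytokines and receptors, 1 of 26 was lower, il7r, and 1 higher, il13 (8 in BaP, 4 in DMSO), with a median of -0.04. The interval of il13 included equality.

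Genes of cell division, which cycling thymocytes and many other larval cells use, had a median log2 ratio of -0.25 over 45 genes. None of the 45 was at least 2-fold lower, and 1 was higher, the chromatin remodeller gene hells (345 normalized reads in the BaP library, 48 in the DMSO library). The most abundant, hmgb2b and mcm7, had 885 and 478 in BaP and 1156 and 668 in DMSO. On the interferon response list, 3 of 29 were lower (10.3%) and 1 higher (3.45%), with a median of -0.05. Among all genes these shares were 4.36% and 3.75%. The lower genes were rsad2 (2 normalized reads in BaP, 21 in DMSO), an irf1b model (73 in BaP, 175 in DMSO) and stat1b (23 in BaP, 47 in DMSO). The higher one was usp18 (24 in BaP, 10 in DMSO), and a second irf1b model had 207 in BaP and 216 in DMSO.

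Over the distinct genes of the 14 immune lists (all but the AhR, cell division and interferon lists), 345 were measured, of which 23 were at least 2-fold lower (6.67%) and 21 at least 2-fold higher (6.09%), with a median log2 ratio of -0.08. Scaling both libraries to equal totals, which adds 0.17 to every log2 ratio and so to every list median, changed this split to 17 lower and 27 higher, and over all genes to 2.97% lower and 5.15% higher. Removing a trend with level gave 17 lower and 24 higher immune genes, and 3.35% lower and 4.3% higher over all genes. Under equal totals, 5 of the 10 genes were at least 2-fold lower, the exception being lck, and ccr9a was still higher. Leaving the 10 genes out, 17 of 335 immune genes were lower and 20 higher as deposited, so the immune lists as a whole had no common direction.

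**Figure D4:**
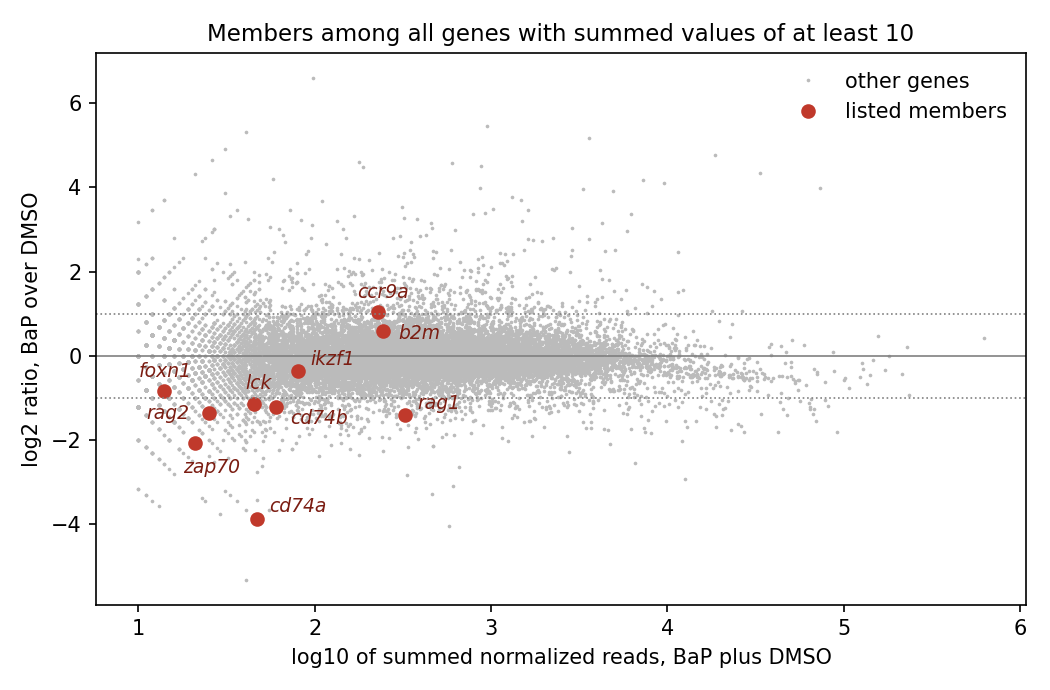
Log2 ratio, BaP over DMSO, against the log10 of the summed normalized reads for all 21764 measured genes (small dots) and the 10 genes (labelled circles), with dotted lines at 2-fold. The spread is wider at low sums, where foxn1, rag2, zap70, lck and cd74a lie, and cd74a sits near the lower edge of all genes.

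Beside the 10 genes on their chromosomes lie 20 other genes that flank or overlap them, of which 2 were at least 2-fold lower and 0 higher. The lower ones were SPATA48, next to ikzf1, with 4 normalized reads in the BaP library and 12 in the DMSO library, and zgc:136930, next to ccr9a, with 2378 and 9679. The second of these was lower beside a gene that was higher. The genes that flank cd74a, ndst1a and slc35a4, had 449 and 334 normalized reads in the BaP library and 554 and 425 in the DMSO library. Those that flank lck, tmem54a and fam167b, had 283 and 131 in BaP and 203 and 114 in DMSO. The neighbours of cd74a and lck thus lay within 2-fold of equality.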

How the data were processed

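Per the labels' protocols, a stranded mRNA kit was used on 200 ng of total RNA per library. The submitters' processing notes list the builds GRCz11 and danRer11 and the tools featureCounts 1.6.3, STAR 2.6.1d and Trimmomatic 0.38, without their roles. The deposited values are a score, namely read counts normalized and rounded to whole numbers by the authors. How they were scaled, and how multiply mapped reads were treated, is not stated in the sources. The frequencies of low values show the spacing that rounding after multiplication by 1 constant per library gives. The constant was estimated by maximum likelihood as 0.544 (BaP) and 0.6788 (DMSO). The estimate and the intervals were tried on data simulated as Poisson reads, multiplied by a constant and rounded. That is the model they assume, so this checks the computation and not the model. Dividing by the constant gave estimated reads, known to within about 1 read.

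With 1 library per treatment, no test was run. Genes with summed values of at least 10 were compared across all genes, a gene at or past 2-fold was counted as lower or higher, and a 0 was set to 3 reads in ratios. Intervals are Clopper-Pearson intervals at 95% on the share of reads, widened for rounding. They cover counting error only, since reads carry no molecular identifiers. The members and the 17 lists (514 symbols, 442 matched, 20 of them through the name tables) were chosen with earlier results of these data known. Named are all members and, per list, up to 4 genes past 2-fold whose interval lay farthest from equality, and the 2 most abundant where fewer than 2 passed. Other genes were named after their values were seen. Coordinates are those of the deposited table. No sequences were used here. Values were computed with pandas 2.3.3, scipy 1.17.1 and numpy 2.4.6 in Python 3.11.15. The alternatives tried were other scalings, filters, folds and pseudocounts.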

Additional observations from a re-analysis of the deposited data

How the results depend on the processing

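All 60 alternative log2 ratios of the 10 genes, under 6 other scalings or pseudocounts, kept their direction and stayed within the counting interval, for example -1.40 to -1.24 for rag1 and -3.81 to -2.61 for cd74a. The construction largely fixed this outcome. A number added to both values cannot reverse a ratio, and scaling by totals, median or trimmed mean added only 0.06 to 0.17 to each log2 ratio. Depth set the limit. With summed values of at least 50 required, 2 of the 10 genes were lower, and 5 of the immune genes were lower and 12 higher. A fold of 3 left 2 lower and 0 higher of the 10 genes, and 7 lower and 8 higher immune genes, while a fold of 1.5 gave 2 higher of the 10 genes and 48 lower and 43 higher immune genes. Adding 5 to both values left 4 of the 10 genes lower, without rag2 (log2 ratio -0.94) and lck (-0.92), and 0 higher, and 13 lower and 13 higher immune genes. These changes follow from the construction of the alternatives. Under the 4 alternatives that change the scaling or remove a trend, over all genes the lower share of those past 2-fold moved to between 36.6% and 47.1%, against 53.7% as deposited. Requiring that the interval leave out equality kept 6 lower and 1 higher of the 10 genes, and 19 lower and 18 higher immune genes. With the values taken as reads, an alternative chosen after seeing the data, these were 6 and 1, and 17 and 15. No paired analysis was possible because each treatment has 1 library.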
